A study of Mus musculus with 9 samples.

Results

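The genes Zfp700 to Zfp999 were described in mouse testis RNA from postnatal day 10. They were taken as the rows of the deposited table whose first gene name is Zfp followed only by a number, in the range from Zfp700 to Zfp999. The rule found 98 rows, each a RefSeq transcript accession, that belong to 83 genes. The table holds 23844 genes in all, where each of the 4084 rows without a name counts as a gene of its own. RNA-seq covered 3 Lin28a knockout and 3 wild type libraries by their labels, all of strain C57BL/6 and all of whole testis. The titles call the knockout libraries cKO, but the sources used here name no Cre driver and do not say whether the libraries came from separate animals. The table holds a single FPKM value (fragments per kilobase of transcript, scaled to the mapped fragments) for each group, in columns labelled case and control and called so below. Case was read as the knockout and control as the wild type from the column names alone. The targeted gene goes against that reading: Lin28a was at 23.4 FPKM in case and 8.82 FPKM in control (q = 0.00191 in the authors' deposited table), so the directions that follow depend on how the columns were named. Another 3 samples are libraries of RNA crosslinked to LIN28A (CLIP), not analysed here.

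Zfp is the mouse prefix for genes of zinc finger proteins, most of them of the C2H2 kind, in which a cysteine pair and a histidine pair hold a zinc ion and a row of such fingers reads DNA. Many of the genes with high numbers encode KRAB zinc finger proteins. Their KRAB domain recruits the corepressor TRIM28, which brings the histone methyltransferase SETDB1 and HP1 proteins and silences endogenous retroviruses and other repeats. The family has grown by tandem duplication, differs widely between mammals, and often lies in clusters of near-identical neighbours. Rows of such copies can share reads, and the sources used here do not say how shared reads were counted, so the level of any single member of a cluster is uncertain.

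Most of these genes were transcribed at low levels. Of the 83 genes, 76 had a mean of the 2 columns of at least 1 FPKM and were analysed further, 50 of them under 5 FPKM, 18 from 5 to under 10 FPKM and 8 at 10 FPKM or more. The median of the 76 was 4.02 FPKM, with quartiles of 2.52 and 6.27 FPKM. The median over all 12794 genes at or above 1 FPKM was 11.7 FPKM, and 21.8% of these lay below the median of the zinc finger genes. The 171 analysed genes from Zfp1 to Zfp699, which carry the same prefix with lower numbers, had a median of 5.75 FPKM. All 83 genes together made up 0.127% of the summed FPKM in case and 0.119% in control. The depth of the libraries is unknown, and no value per library was analysed, so no SD or n stands beside any FPKM value.

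The highest level belonged to Zfp740, at 36.7 FPKM in case and 33.3 FPKM in control. Zfp711, an X-linked gene related to Zfx whose human counterpart is mutated in intellectual disability, followed at 18.9 FPKM in case and 20.3 FPKM in control. Zfp706, which encodes a very small zinc finger protein, was at 16.7 FPKM in case and 15.6 FPKM in control. These 3 genes stood in the same order in both columns. Below them came a group whose levels lay close together. Zfp869 was at 13.8 FPKM in case and 11.5 FPKM in control, and Zfp777 at 12.8 FPKM in case and 10.6 FPKM in control. Zfp868 was at 9.91 FPKM in case and 12.1 FPKM in control, the opposite direction to Zfp866, at 11.9 FPKM in case and 9.73 FPKM in control. Zfp871 was at 11.1 FPKM in case and 9.81 FPKM in control. Zfp839 was at 9.87 FPKM in case and 10.1 FPKM in control, and Zfp800 was at 9.46 FPKM in case and 9.82 FPKM in control. The order of these 7 genes differed between the columns. At the low end, Zfp735 and Zfp935 were listed at 0 in both columns and Zfp957 at 0 in case and 0.0266 FPKM in control. Zfp773, Zfp831, Zfp872 and Zfp879 made up the rest of the 7 genes under 1 FPKM. These levels count only rows that carry the name of the gene. With unnamed rows counted by RefSeq symbol, Zfp935 was at 6.43 FPKM in case and 5.56 FPKM in control. Counted in that way, Zfp809 was at 13.7 FPKM in case and 11.7 FPKM in control, above Zfp869 by the mean of both columns if unrounded.

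**Figure D1:**
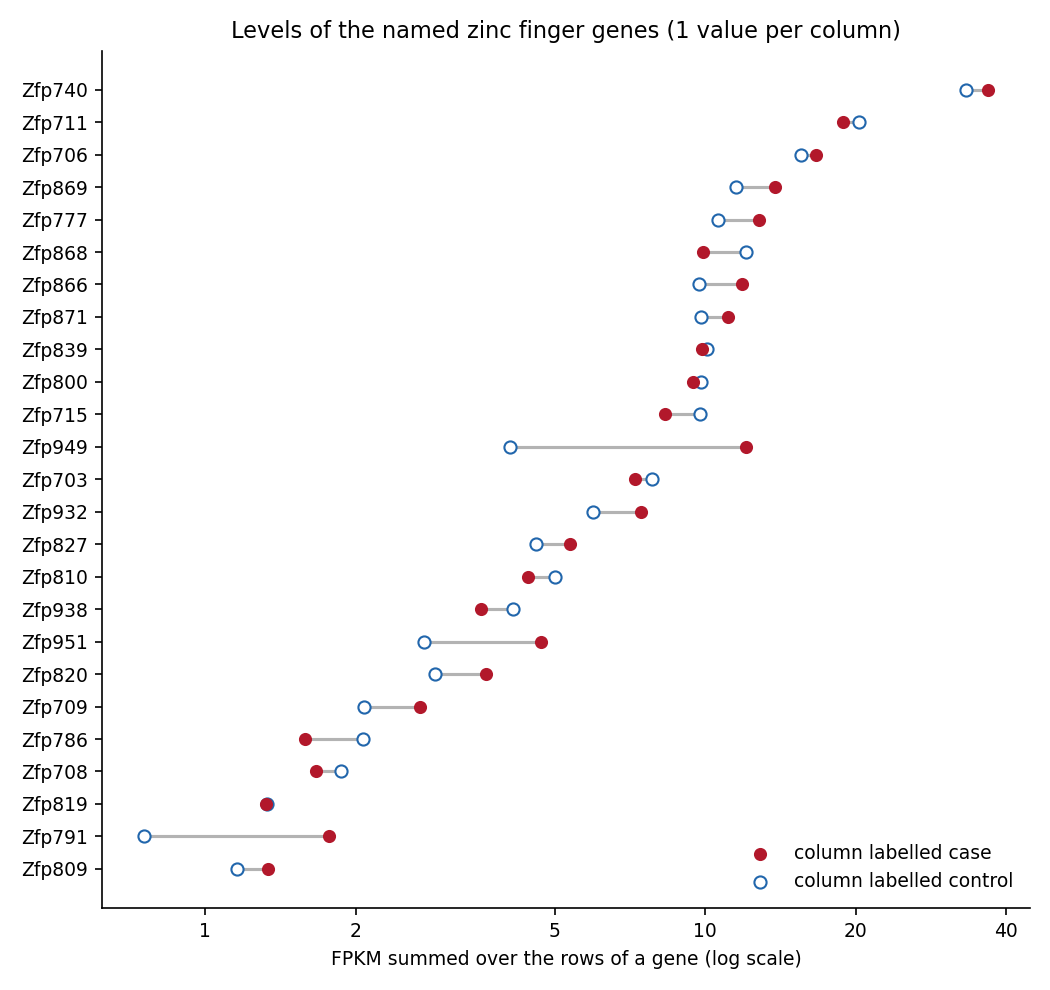
FPKM of the 25 genes named by rule, summed over the rows of each gene, in case (filled points) and control (open points), on a log axis. Each point is a single value for its group. Zfp740 is highest, at 36.7 FPKM in case and 33.3 in control, and Zfp949 has the widest gap, at 12.05 in case and 4.07 in control, where a row of it is listed at 0.

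By their names, the columns set the knockout against the wild type, although the Lin28a transcript itself was higher in case. A single row of the 98 passed the authors' test, that of a Zfp949 transcript, which was higher in case. It was 1 of the 76 rows with test status OK, at a q-value under 0.05, and 0 rows passed in the other direction. Over all 13629 tested rows, 0.0514% passed, 0.044% as higher and 0.00734% as lower in case. At an unadjusted p under 0.05 there were 2 higher rows, those of Zfp949 and Zfp791, and 0 lower rows, beside 0.646% and 0.631% of all tested rows. The other 22 rows carry no usable test, 11 with status NOTEST and 11 with status FAIL. All rows of Zfp790, Zfp821, Zfp839, Zfp869 and Zfp945 had status FAIL, so these 5 genes have FPKM values but no p-value.

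Zfp949 (mm10 chr9:88548020-88571086) has 2 rows, whose values lay in opposite directions. The row NM_001163061 was at 9.78 FPKM in case, while in control it was listed at 0. The authors' deposited table gives it p = 2.46e-10 and q = 1.68e-06. No fold is given against a value listed at 0, since an exact 0 in such a table can be a failed estimate. The row NM_001142943 was at 2.26 FPKM in case and 4.07 FPKM in control, with p = 0.0856 in the authors' deposited table. As listed, the first transcript made up 81.2% of the gene's FPKM in case, and the whole of the control value came from the other row. Summed over both rows, Zfp949 was at 12.05 FPKM in case and 4.07 FPKM in control. This sum has no test, and its control value includes the row listed at 0, so no fold is given for the gene either. By level it ranked 14th of the 83 genes over the mean of both columns, counting named rows only. RefSeq gives the gene a single promoter window on build GRCm38.p6. Whether this window belongs to the row that passed, NM_001163061, was not tested. Its 250 bases before the start site (chr9:88547770-88548019, plus strand) are shown because a row of the gene passed. Neither these bases nor the 50 after them held any of the 10 motifs searched below.
Zfp949: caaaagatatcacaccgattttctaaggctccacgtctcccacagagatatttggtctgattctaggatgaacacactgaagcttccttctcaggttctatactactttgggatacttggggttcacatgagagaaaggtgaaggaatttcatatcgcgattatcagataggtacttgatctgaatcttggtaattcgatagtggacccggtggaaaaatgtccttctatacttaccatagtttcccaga

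**Figure D2:**
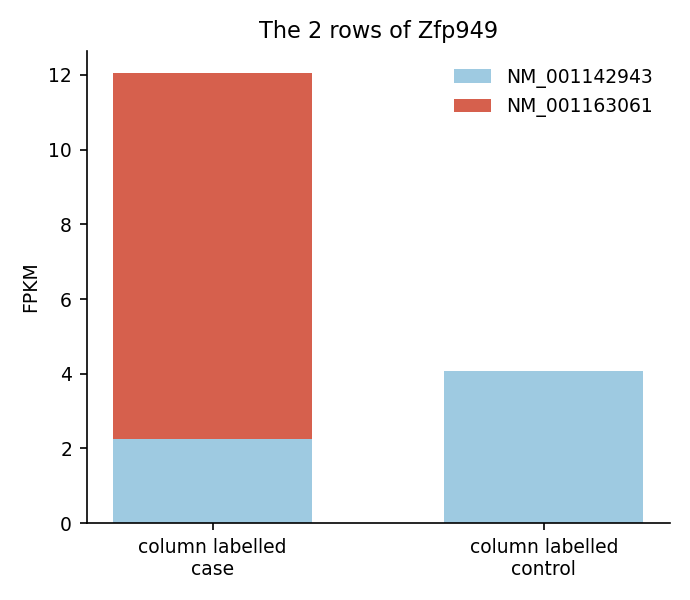
FPKM of the 2 Zfp949 rows stacked for case (left) and control (right). The NM_001163061 row is at 9.78 FPKM in case and listed at 0 in control, and the NM_001142943 row is at 2.26 FPKM in case and 4.07 FPKM in control.

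Among the other genes the differences were small against the authors' own error. Their p-value equals the 2-sided normal tail of their test statistic to within 2.77e-06, so the ratio of the log2 ratio to the statistic gives the standard error that their test used. This implied error had a median of 0.42 on the log2 scale over the 75 rows that allow it, with quartiles of 0.36 and 0.51, and of 0.34 over all tested rows. The log2 ratio of case over control lay within 1 implied standard error of 0 in 71 of the 75 rows, or 94.7%, beside 91.0% of all tested rows. Without the row of Zfp949 it was 71 of 74 rows. The median p-value of the authors' test over all tested rows was 0.731, so their error was wide beside most differences in the table. The 95% intervals given here rest on the same error. The implied error ran from 0.24 for the row of Zfp740 to 1.21 for a row of Zfp748 at 0.676 FPKM. For Zfp740 the ratio was 1.10 with a 95% interval of 0.793 to 1.54, and for Zfp711 it was 0.929 with an interval of 0.657 to 1.31. Both intervals include a ratio of 1.

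**Figure D3:**
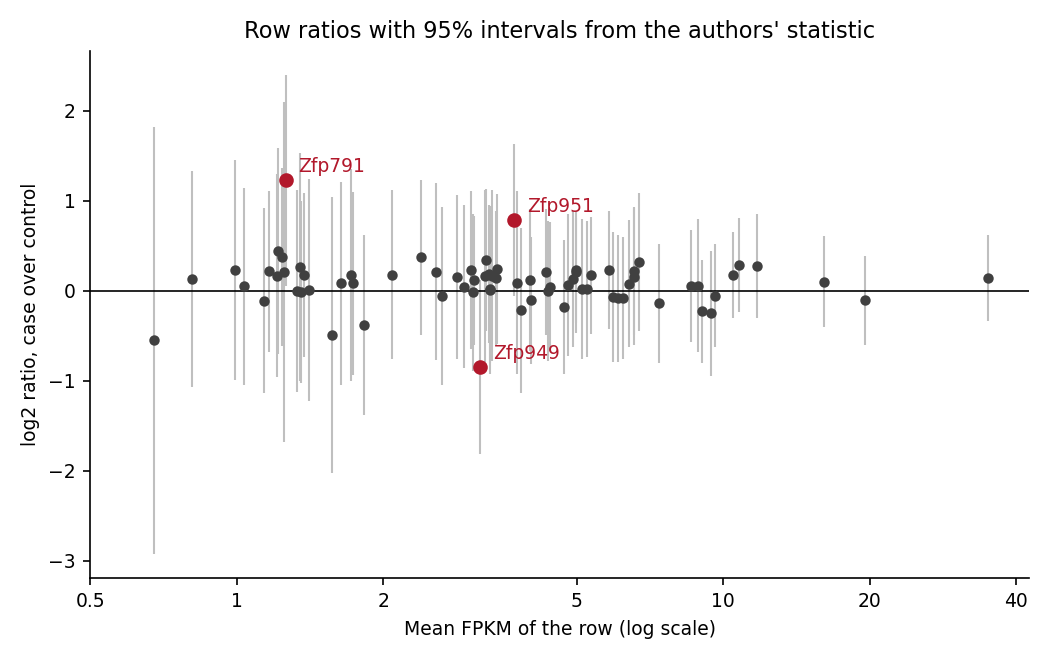
The log2 ratio of case over control against mean FPKM (log axis) for the 75 rows with a test and both values above 0. Bars are 95% intervals from the standard error implied by the authors' statistic; the interval of Zfp791 lies above 0, and those of Zfp951 and the Zfp949 row NM_001142943 include 0.

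Of the 76 analysed genes, 57 (75%) had the higher value in case and 19 in control. Over all genes analysed, 60.7% were higher and 39.3% lower. On the log2(FPKM + 1) scale the median of case minus control was 0.09 over the zinc finger genes and 0.03 over all genes. The pseudocount of 1 makes such differences smaller than the true change at low FPKM. Zfp1 to Zfp699 gave the same picture, with 77.2% of 171 genes higher and a median difference of 0.09. Genes of all kinds between the quartiles of these levels, 2.52 and 6.27 FPKM, were 63.9% higher with a median difference of 0.06. When the columns were scaled by the median ratio over genes, a factor of 1.03, 67.1% of the 76 genes were higher beside 50.1% of all genes and 67.3% of Zfp1 to Zfp699. With a single value per group there is no test of these shares, and the genes are not independent samples.

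**Figure D4:**
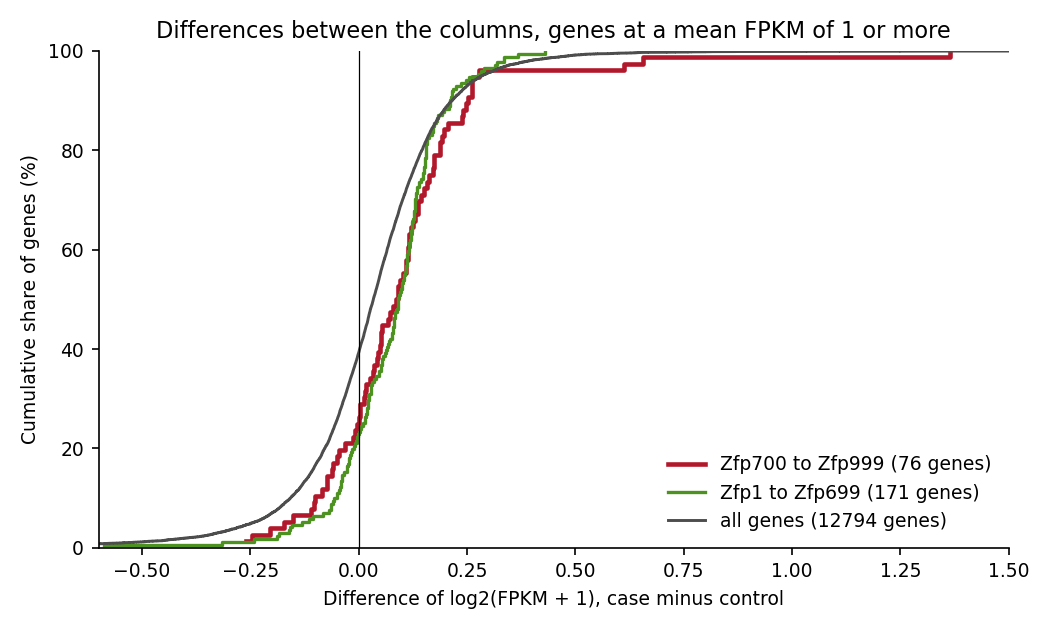
Cumulative share of genes by log2(FPKM + 1) in case minus that in control, for Zfp700 to Zfp999, Zfp1 to Zfp699 and all genes at a mean of at least 1 FPKM. The medians are 0.09, 0.09 and 0.03, and the long right tail of Zfp700 to Zfp999 is Zfp949, Zfp791 and Zfp951.

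A summed ratio of at least 1.5 was reached by 3 of the 76 genes in the higher direction and 0 in the lower, beside 1.39% and 1.51% of all genes with both values above 0. The 3 include Zfp949, whose control sum includes the row listed at 0; without it, 2 of 75 genes were left, Zfp791 and Zfp951. Zfp791 (chr8:85109167-85123095) was at 1.77 FPKM in case and 0.755 FPKM in control. Its ratio was 2.34 with a 95% interval of 1.04 to 5.28, and the authors' deposited table gives p = 0.0410 and q = 0.999966. Zfp951 (chr5:104813168-104860068) was at 4.70 FPKM in case and 2.73 FPKM in control, a ratio of 1.72 with an interval of 0.958 to 3.09 and p = 0.0696 in the authors' deposited table. Neither passed the threshold.

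The next genes in either direction differed by less. On the higher side stood Zfp932, at 7.45 FPKM in case and 5.97 FPKM in control. It encodes a KRAB protein that binds endogenous retroviruses in embryonic stem cells, and its row also carries the name of its near copy Gm15446, so its level may join both. Its ratio of 1.25 had a 95% interval of 0.733 to 2.13. Zfp820 was at 3.64 FPKM in case and 2.88 FPKM in control, Zfp709 at 2.69 in case and 2.08 in control, and Zfp866 and Zfp777 at the levels given above. On the lower side, Zfp868 had the largest difference, at -0.26 on the log2(FPKM + 1) scale. Zfp786 was at 1.59 FPKM in case and 2.07 FPKM in control, a ratio of 0.767 with an interval of 0.383 to 1.54. Zfp715 was at 8.33 FPKM in case and 9.75 FPKM in control, Zfp938 at 3.56 in case and 4.13 in control, and Zfp810 at 4.42 in case and 5.01 in control. All of these intervals, where the row allowed one, included a ratio of 1.

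No row of the following genes, whose roles are known, was under an unadjusted p of 0.05 in the authors' deposited table. Zfp809, which recognises the primer binding site of murine leukaemia virus and recruits TRIM28 to it, had a row at 1.34 FPKM in case and 1.16 FPKM in control. RefSeq assigns 2 unnamed rows of the table to Zfp809 as well, at 10.2 FPKM in case and 9.09 FPKM in control and at 2.10 in case and 1.43 in control, so that the gene as a whole was at 13.7 FPKM in case and 11.7 FPKM in control. The table gives the same locus to 18 entries, where each first gene name and each unnamed row counts as an entry. Zfp935 was similar, with its named row at 0 in both columns and an unnamed row at 6.43 FPKM in case and 5.56 FPKM in control. Zfp819, a KRAB gene linked to repression of retroelements in pluripotent cells, was at 1.32 FPKM in case and 1.33 FPKM in control. Zfp708, whose product binds a family of retrotransposons and protects their DNA methylation in the early embryo, was at 1.66 FPKM in case and 1.87 FPKM in control summed over 3 rows. Its highest row went the other way, at 1.47 FPKM in case and 1.23 FPKM in control. Zfp703, a corepressor whose human counterpart is amplified in breast cancer, was at 7.23 FPKM in case and 7.85 FPKM in control. Zfp827, whose human counterpart recruits chromatin remodellers to telomeres, was at 5.37 FPKM in case and 4.59 FPKM in control.

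Of the 83 genes, 13 had more than 1 row. In Zfp764, Zfp811 and Zfp960 a single row held 100% of the FPKM in both columns. The share of the highest row moved most in Zfp949, as given above. In Zfp708 it was 88.7% in case and 65.6% in control, at levels under 2 FPKM. In Zfp945, whose rows had status FAIL, it was 63.9% in case and 54.8% in control. In Zfp868 it was 86.8% in case and 84.8% in control, and in Zfp839 it was 61.5% in case and 60.9% in control.

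By position, 18 of the 83 genes lay on chromosome 17, 16 on chromosome 7, 14 on chromosome 8 and 9 on chromosome 13. Chromosome 17 thus held 21.7% of these genes and 4.99% of all named genes in the table, and chromosome 8 held 16.9% and 4.87%. These shares and the clusters below count only genes found by the rule on first names. RefSeq gives further genes of the range under other names or none, among them 7 on chromosome 2 and 9 on chromosome 4. Runs of at least 5 members whose starts follow each other within 200 kb held 20 genes, in 3 clusters. The largest cluster spanned 890 kb (chr17:21567046-22456689) with 9 members, 8 of them higher in case, and a median difference of 0.07. In it the levels ran from 1.21 FPKM for Zfp947 to 8.57 FPKM for Zfp942, as means of both columns. RefSeq also places Zfp983, Zfp994 and Zfp995 in this stretch, whose rows carry other first names. Of these, Zfp994 was lower in case, at 1.82 FPKM in case and 1.91 FPKM in control, while Zfp983 and Zfp995 were higher. The second cluster (chr17:32765497-33033381) held 6 members, all 6 higher, with differences from 0.000132 for Zfp952 to 0.17 for Zfp799. The third, on chromosome 8 (chr8:69610654-69774911), held 5 members and the highest levels. Of its genes, Zfp868, Zfp869 and Zfp866 had means of 10.99, 12.7 and 10.8 FPKM, while their neighbours Zfp964 and Zfp963 were at 1.72 and 2.57 FPKM. Of the 5, Zfp868 was lower in case and the other 4 were higher. Of the 20 clustered genes, 18 were higher in case, and of the 56 analysed genes outside them, 39 were. Over all genes analysed, 60.7% were higher, and over the 76 analysed zinc finger genes 75% were. The median difference was 0.09 both inside and outside the clusters, and neither measure has a test.

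The promoters of these genes shared sequence that the choice by name did not use. RefSeq windows of 250 bases before to 50 after the start site were found for 74 of the 83 genes, 91 windows in all. The letters CCAAT, the CCAAT box bound by the factor NF-Y, occurred on either strand in 61.5% of the 91 windows. They occurred in 39.3% of the 196 windows of Zfp1 to Zfp699 and 37.4% of all 32851 windows. Some genes have more than 1 window. Counted by gene, CCAAT was in a window of 46 of the 74 genes, 73 of 157 from Zfp1 to Zfp699 and 11096 of all 27025. The matches were bunched: 35.2 per 100 windows lay from 75 to 50 bases before the start site, against 7.20 per 100 over all windows. On the strand of the gene, 25 genes on 10 chromosomes held CCAAT in that stretch. The 6 windows below show it. They are from the gene with the highest FPKM on each chromosome, for the 6 chromosomes where that FPKM was highest. Each is 50 bases on the strand of the gene, and capitals mark CCAAT and, where present, GTCACTCA. Their places on GRCm38.p6 are chr8:69716943-69716992 (minus strand) for Zfp869, chr5:109996420-109996469 (plus) for Zfp932 and chr11:59472515-59472564 (minus) for Zfp867. The others are chr6:47953300-47953349 (plus) for Zfp956, chr17:32830302-32830351 (minus) for Zfp799 and chr10:82241321-82241370 (minus) for Zfp938.
Zfp869: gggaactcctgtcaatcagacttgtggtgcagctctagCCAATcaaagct
Zfp932: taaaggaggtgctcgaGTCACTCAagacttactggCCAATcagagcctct
Zfp867: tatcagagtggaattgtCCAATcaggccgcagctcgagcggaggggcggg
Zfp956: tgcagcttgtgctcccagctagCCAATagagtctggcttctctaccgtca
Zfp799: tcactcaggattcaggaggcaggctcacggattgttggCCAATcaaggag
Zfp938: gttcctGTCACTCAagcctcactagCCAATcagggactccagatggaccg

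**Figure D5:**
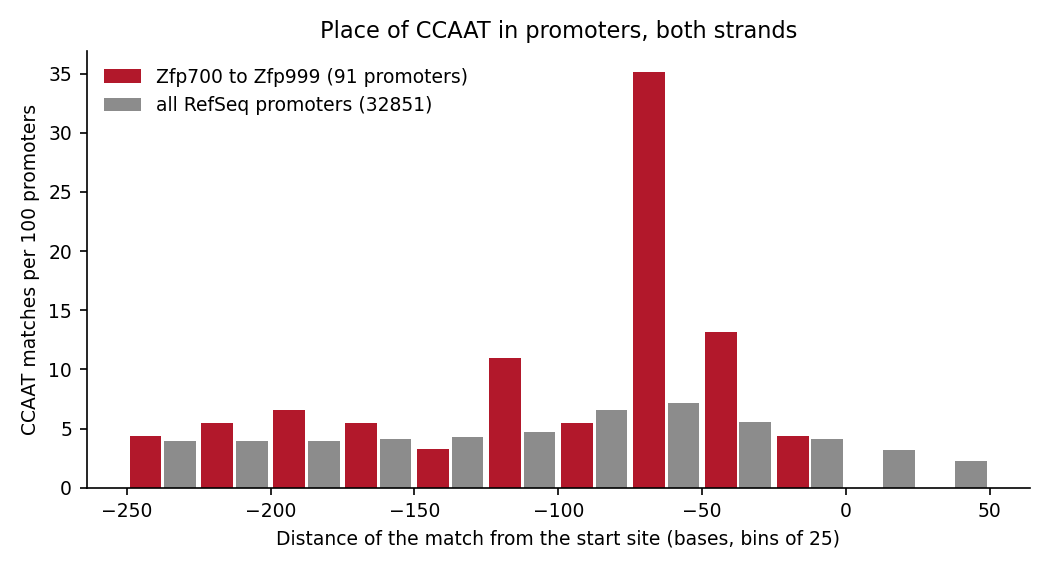
CCAAT matches per 100 promoter windows, on both strands, in bins of 25 bases by distance from the start site, for 91 windows of Zfp700 to Zfp999 and 32851 windows of all RefSeq genes. The bin from 75 to 50 bases before the start holds 35.2 per 100 windows in Zfp700 to Zfp999 and 7.20 in all.

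The letters GTCACTCA, searched after these windows were seen, occurred on either strand in 22.0% of the 91 windows, 4.08% of those of Zfp1 to Zfp699 and 1.47% of all. Because the letters were picked from windows of these genes, the shares do not test whether they are more common there. The spacing given next was not tested either. Both GTCACTCA and CCAAT were in windows of 14 genes, and in 11 of these CCAAT followed GTCACTCA within 60 bases on the strand of the gene. In 7 of the 11, on 5 chromosomes (Zfp866, Zfp931, Zfp932, Zfp937, Zfp938, Zfp958 and Zfp959) exactly 19 bases separate the first letter of GTCACTCA from the first letter of CCAAT. The spacing was 39 bases in Zfp799, 29 and 55 in Zfp868, 30 in Zfp869 and 32 and 60 in Zfp939. Promoters of duplicated genes are not independent of each other. The levels of genes with and without CCAAT overlapped. The 43 analysed genes with it had a median of 3.43 FPKM with quartiles of 1.91 and 4.56, and the 25 without it had a median of 4.92 FPKM with quartiles of 2.39 and 8.06. Of the 43 with it, 34 were higher in case, and of the 25 without it, 18 were. Over all genes analysed the share was 60.7%.

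The E-box CACGTG was found in 14.3% of the windows, against 3.57% in Zfp1 to Zfp699 and 7.15% of all windows. CACGTG reads the same on both strands, so a site between head-to-head genes counts in both windows. The 13 windows held 13 distinct sites, 2 of them shared by windows of 2 genes, while some windows held 2 sites. Of the 13 genes, 8 lie on chromosome 17, and 4 of these form a pair of head-to-head gene pairs in the largest cluster. The starts of Zfp942 and Zfp943 lie 95 bases apart on opposite strands, and those of Zfp944 and Zfp758 lie 63 bases apart. Each pair shares a single CACGTG. The aligned windows of Zfp758 and Zfp943 were 100% identical over 292 bases apart from gaps, and those of Zfp942 and Zfp944 were 99.6% identical over 275 bases. The 250 bases before the start of Zfp758 (chr17:22361213-22361462, plus strand) and of Zfp943 (chr17:21962309-21962558, plus strand) are shown to let the copies be compared, with CACGTG in capitals.
Zfp758: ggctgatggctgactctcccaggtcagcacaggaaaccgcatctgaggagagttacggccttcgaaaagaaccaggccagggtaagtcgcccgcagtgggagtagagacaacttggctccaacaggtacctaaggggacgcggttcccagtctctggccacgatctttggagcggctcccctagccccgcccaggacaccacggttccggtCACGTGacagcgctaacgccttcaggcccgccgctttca
Zfp943: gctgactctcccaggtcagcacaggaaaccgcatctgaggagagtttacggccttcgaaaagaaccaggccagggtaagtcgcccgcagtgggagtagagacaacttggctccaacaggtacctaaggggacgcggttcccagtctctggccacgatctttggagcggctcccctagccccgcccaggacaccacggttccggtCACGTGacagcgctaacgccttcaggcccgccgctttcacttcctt

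These 4 genes were listed at different levels. Zfp942 was at 8.72 FPKM in case and 8.42 FPKM in control, and Zfp944 at 6.57 FPKM in case and 6.22 FPKM in control. On the other strand, Zfp943 was at 5.28 FPKM in case and 5.23 FPKM in control, and Zfp758 at 3.05 FPKM in case and 3.08 FPKM in control. The order of the 4 was the same in both columns. Shares of the other 8 motifs are of the windows of Zfp700 to Zfp999, of Zfp1 to Zfp699 and of all genes. The core of the ZNF143 site was in 10.99%, 17.9% and 1.81%, and the NRF1 site in 2.198%, 4.08% and 0.971%. The ETS site CCGGAAG was in 15.4%, 25% and 8.86%, and the GC box GGGCGG in 37.4%, 45.9% and 35.7%. The TATA box TATAAA was in 6.59%, 7.14% and 13.6%, and AAGATGGC (YY1) in 6.59%, 5.61% and 2.75%. TTCCCGCC (E2F) was in 1.10%, 3.06% and 2.19%, and CAGTTG (MYB) in 10.99%, 10.2% and 13.7%. All were searched on both strands, and a match says only that the letters are there.

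Genes for the proteins that KRAB zinc finger proteins act through were read by their highest row, and none of these rows passed the authors' threshold. All 25 genes on a list of TRIM28, its partners and the HUSH complex were in the table, from 4.89 FPKM for Atf7ip2 to 189 FPKM for Rbbp7. Trim28 was at 107 FPKM in case and 102 FPKM in control. Setdb1, the histone methyltransferase, was at 33.8 FPKM in case and 36.5 FPKM in control, and its highest row had status FAIL. Cbx5, an HP1 protein, was at 23.7 FPKM in case and 19.9 FPKM in control, and its highest row also had status FAIL. Over all genes analysed, 60.7% were higher in case, with a median difference of 0.03. Of the 25, 18 were higher and 7 lower, with a median difference of 0.06. By their highest row, 0 of the 21 with a test passed over all rows in either direction, and 0 were under an unadjusted p of 0.05. On the log2(FPKM + 1) scale Hdac1, a histone deacetylase, had the largest difference of the 25, -0.62, at 7.78 FPKM in case and 12.5 FPKM in control (p = 0.0607 in the authors' deposited table).

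Markers of the cell types of the testis differed in level between the columns, though none passed the authors' q threshold by its highest row. Over all genes analysed, 60.7% were higher and 39.3% lower in case. All 10 meiotic prophase markers were lower in case, with a summed level of 243 FPKM in case and 388 FPKM in control. Of the 9 with a test, 6 were under an unadjusted p of 0.05, all lower, beside 0.631% of all tested rows. All 6 Leydig cell markers were higher, at 328 FPKM in case and 252 FPKM in control, as were all 6 peritubular and stromal markers, at 546 in case and 462 in control, and all 5 endothelial markers, at 38.8 in case and 31.7 in control. Spermatogonial markers had 3 of 6 higher, at 248 FPKM in case and 261 in control, and Sertoli markers 4 of 6, at 2425 in case and 2622 in control. The largest spermatogonial difference was that of Stra8, at 68.1 FPKM in case and 86.3 in control. Most of the Sertoli sum was Clu, at 2028 FPKM in case and 2251 in control. The other lower Sertoli marker was Rhox5, at 8.90 FPKM in case and 19.3 in control (p = 0.0254 for its highest row in the authors' deposited table). Macrophage markers had 1 of 4 higher, at 47.2 in case and 57.5 in control. Most of that sum was Lyz2, at 31.9 FPKM in case and 45.6 in control. The higher marker was Cd74, at 6.22 FPKM in case and 2.04 in control (p = 0.00524 in the authors' deposited table). Of 5 epididymis markers 3 were at 0 in both columns, and the summed level was 17.9 FPKM in case and 11.9 in control. The other 2 lay in opposite directions: Cst8 was at 17.6 FPKM in case and 9.65 in control, and Crisp1 at 0.261 in case and 2.27 in control (p = 0.00256 in the authors' deposited table). In whole testis, fewer cells of a type and less RNA per cell cannot be told apart, and the part of these markers in the values of the zinc finger genes was not tested.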

How the data were processed

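Whole testis RNA of postnatal day 10 was sequenced from 3 Lin28a knockout and 3 wild type libraries. The submitters' processing notes name TopHat2 2.0.9 and mm10; no source used here names the program behind the FPKM values. The authors deposited FPKM per row, per the file headers, in columns named case and control, with a p-value and a q-value per row. Their deposited log2 ratio is control over case to within 5.01e-05; all ratios here are case over control. The q-values are Benjamini-Hochberg adjusted over 13629 rows with status OK, to within 2.26e-06.

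Rows were summed by first gene name. The 4084 rows that carry no name were each kept as a separate gene and count among all genes. Genes whose mean FPKM reached 1 were analysed on the log2(FPKM + 1) scale with pandas 2.3.3, and summaries were tested on simulated data. Starts count from 0 in the file, and 1 was added. Symbols by accession came from RefSeq (GRCm38.p6) for 29071 accessions. Promoter windows were aligned with Biopython 1.88 with free end gaps, and pairs with at least 200 aligned bases were compared.

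The genes and lists were chosen with earlier results of these data known. Named genes are those with a row at q or p under 0.05, the 10 highest, the 8 largest and 8 smallest differences, and members of known function; Zfp735, Zfp748, Zfp764, Zfp773, Zfp790, Zfp821, Zfp831, Zfp872, Zfp879, Zfp935, Zfp945, Zfp957, Zfp960, the clustered genes and those of the promoter paragraphs were named after their values were seen. Protein sequences were not used here. Alternatives were pseudocount, filter, scaling, rows per gene, symbol source, threshold and leaving out Zfp949.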

Additional observations from a re-analysis of the deposited data

How the results depend on the processing

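The median difference of 0.09 stayed between 0.06 and 0.10, and the share of genes higher in case between 65.4% and 76.3%, under a pseudocount of 0.1, no filter, a mean of at least 5 FPKM, median of ratios scaling, the highest row per gene, rows with status OK, symbols by accession and leaving out Zfp949. The lowest share, at a mean of at least 5 FPKM, stands beside 60.5% of all genes under the same filter. The count of 3 genes at 1.5-fold or more higher was 1 at a mean of at least 5 FPKM, where 26 genes were left. The count of 1 called row was 2 at an unadjusted p under 0.05. The Zfp949 difference of 1.36 was 1.54 with a pseudocount of 0.1. With its highest row alone it was 3.43, a size that depends on the pseudocount because control lists that row at 0. For the other 24 named genes, 6 of 118 alternative values lay more than 0.1 away and 2 changed sign, both of Zfp708, at 0.15 with its highest row or its OK row alone, where its other rows drop out. No paired analysis was possible because the table gives 1 value per group, and leaving out each replicate in turn was not run for the same reason.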

Other observations

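RefSeq gives 35 further genes of the range Zfp700 to Zfp999 by accession that carry another name, or none, in the table. They were chosen after the values were seen. Of the 32 at a mean of at least 1 FPKM, 23 had the higher value in case and 9 in control, with a median difference of 0.08 on the log2(FPKM + 1) scale and a median level of 4.21 FPKM. The highest were Zfp787, at 14.7 FPKM in case and 14.6 FPKM in control, Zfp746, at 12.5 in case and 12.6 in control, and Zfp991, at 12.1 in case and 12.2 in control. Among them Zfp768 was at 9.54 FPKM in case and 9.87 FPKM in control, Zfp830 at 7.09 in case and 7.20 in control, and Zfp750, a regulator of skin differentiation, at 0.166 in case and 0.132 in control.

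In 2 stretches, chosen after the values were seen, all genes of the range by accession were counted, including Zfp933 and Zfp931, which carry their own names in the table. On chromosome 4 from Zfp980 to Zfp933, 8 of 9 analysed genes were higher in case, with a median difference of 0.15 and a summed level of 43.7 FPKM in case and 37.9 FPKM in control. Zfp992 was at 7.33 FPKM in case and 5.14 FPKM in control, and Zfp982 at 4.46 FPKM in case and 3.45 FPKM in control. On chromosome 2 from Zfp965 to Zfp931, 6 of 6 analysed genes were higher in case, with a median difference of 0.18. Their summed level was 24.0 FPKM in case and 19.8 FPKM in control. Over all genes analysed, 60.7% were higher in case. Rows of Zfp966, Zfp967, Zfp970 and Zfp971 carry gene names in common, so their values may rest on shared reads and are not separate observations. Zfp973 was at 5.49 FPKM in case and 3.54 FPKM in control, and the table gives the same locus to Zfp965, which was listed at 0 in both columns. Zfp991 and Zfp992 also share a locus in the table. No row of these genes passed the authors' test.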
